A study of Rattus norvegicus with 10 samples.

Results

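Solute carriers are membrane proteins that move small molecules such as sugars, lactate, amino acids, nucleotides, vitamins, metal ions and protons. Most work at the cell surface or in organelle membranes, while the Slc25 family serves the inner membrane of mitochondria. Round spermatids, the haploid cells that follow meiosis, are known to take up lactate and pyruvate from Sertoli cells, and mature sperm need exchangers of protons and anions for motility. The genes described here are the solute carrier genes expressed in round spermatids of Brown Norway rats. They were selected on name and on level: protein-coding genes with a symbol that starts with Slc or Slco and a number, and with a mean of at least 5 FPKM over all 10 libraries. FPKM is a fragment count scaled to gene length and library size, so levels of different genes can be set side by side. Of 372 genes with such a symbol, 101 reached this mean. As members were chosen by their mean level, levels are given as a description, with no test.

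The aged group holds 5 libraries from wild-type rats of 18 to 20 months and the young group 5 libraries from wild-type rats of 4 to 6 months. STA-PUT, a sedimentation of testis cell suspensions that separates cells by size and density, gave the cells, and messenger RNA was sequenced, per the labels' protocols. The labels do not say whether each library came from its own animal or from pooled animals, so p-values measure the spread between these libraries. The comparison asks how the members' messenger RNA levels differ between aged and young spermatids.

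Messenger RNA of the carriers differed little between the ages. Of 101 members, 0 passed limma at a Benjamini-Hochberg adjusted p under 0.05, where the share of all 12985 tested genes that passed was 0.0%. Voom on recovered fragments also gave 0, and the smallest adjusted p of a member by limma was 0.319. The fitted log2 differences, aged minus young on log2(FPKM + 1), were largest at 0.45 for Slc7a5, a transporter of large neutral amino acids. The median over the members was -0.025, against -0.015 over all genes tested. For 99 of the 101 members (98.0%) the 95% interval of the difference lay within 1.5-fold in either direction. The same held for 96.2% of 6767 other protein-coding genes in the members' range of levels and for 87.2% of all genes tested. The exceptions were Slc7a5 (interval 0.15 to 0.76) and 1 of 2 genes named Slco6d1, an organic anion transporter (interval -0.79 to 0.25). The plot of the age difference of every member shows most intervals crossing 0.

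**Figure D1:**
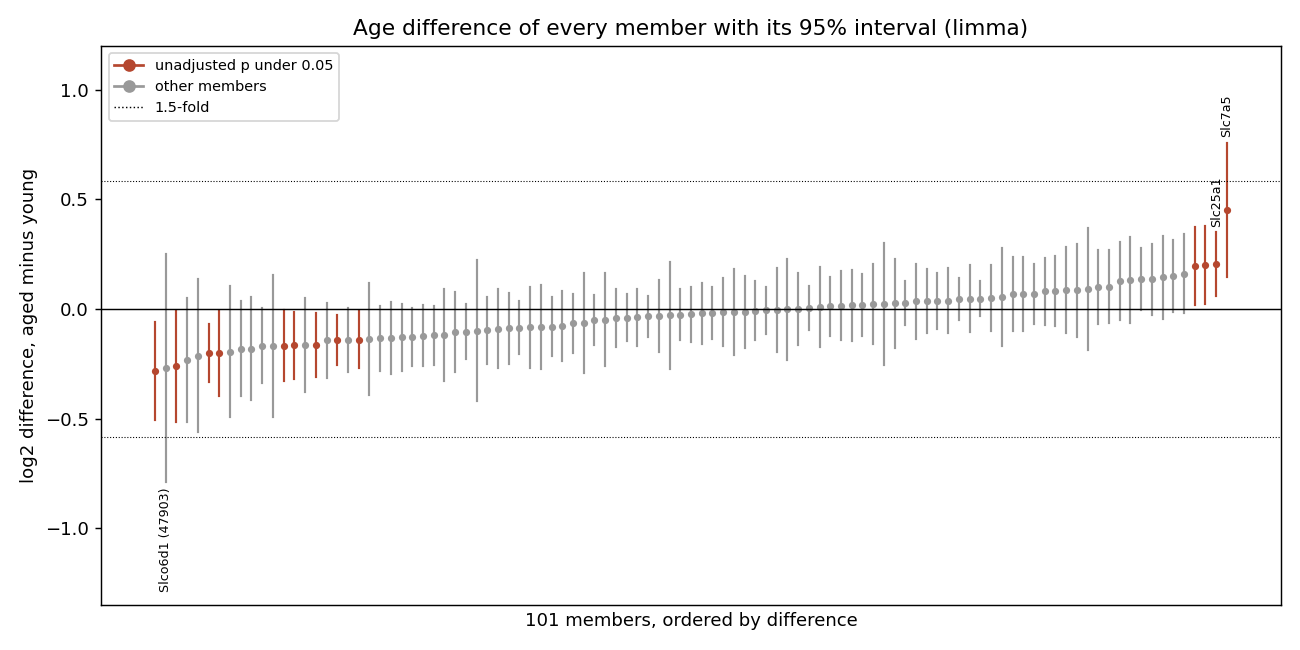
The log2 difference (aged minus young, on log2(FPKM + 1)) of each of the 101 members is drawn with its 95% interval from limma, ordered from lowest to highest; members at an unadjusted p under 0.05 are in red and dotted lines mark 1.5-fold. The highest difference is 0.45, for Slc7a5, and the intervals of Slc7a5 and of 1 Slco6d1 gene extend past 1.5-fold.

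At an unadjusted p under 0.05 there were 13 members (12.9%), where 11.9% of all tested genes had such a p. Of these, 4 members (3.96%) were higher in aged libraries, against 5.54% of tested genes, and 9 members (8.91%) were lower, against 6.35% of tested genes. The aged and young values did not overlap for 1 member (0.990%), Slc25a1, against 2.6% of tested genes. These shares lie near those of all genes. The direction depended on the scaling: 4 of 13 members (30.8%) were higher with the deposited values, 6 of 9 (66.7%) after TPM scaling, 6 of 12 (50%) after quantile scaling and 7 of 12 (58.3%) with voom. The share of higher genes among all tested genes at such a p moved too, being 46.6% with the deposited values, 61.2% after TPM scaling, 51.3% after quantile scaling and 61.4% with voom. Over all 101 members 41 were higher and 60 lower in aged libraries with the deposited values, and 50 and 51 with voom. With the deposited values 5902 of the 12985 tested genes were higher and 7083 lower. Of 6767 other protein-coding genes in the members' range of levels, 2881 were higher and 3886 lower. The counts by direction in the classes below are to be read beside these. Single libraries moved the count of members as well as that of all genes. It was 24 members without young replicate 5, where 16.8% of all tested genes had such a p. It was 8 without aged replicate 2 or without young replicate 1, 2 or 3 (8.895% to 9.98% of all tested genes), and 7 without aged replicate 5 (9.98%) or young replicate 4 (9.27%).

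The libraries hold 15992576 to 18203223 fragments in the aged and 14488222 to 17401744 in the young group, recovered from the deposited values, so that 1 FPKM over a kilobase stands for 14.6 to 18.6 fragments. Among the 8 round spermatid markers listed (among them Prm1, Tnp1 and Acrv1), 4 were higher in aged libraries, and their summed level was 20040 to 26470 FPKM in aged and 20010 to 32110 FPKM in young libraries. Markers of other testis cells were present at lower levels. The summed level of 6 Leydig cell markers ran from 10.7 to 119 FPKM in aged and from 4.90 to 7.87 FPKM in young libraries, with all 3 tested ones higher in aged libraries, and Hsd3b1 was listed at 0 in at least 1 library, as were Amh and Rhox5 of the Sertoli cell list. For 9 Sertoli cell markers (4 of 5 tested ones higher in aged libraries) the sum was 31.5 to 132 FPKM in aged and 25.2 to 32.9 FPKM in young libraries. For 10 peritubular markers (9 of 9 higher) it was 88.1 to 217 FPKM in aged and 56.1 to 85.7 FPKM in young libraries. For 10 macrophage markers (8 of 9 higher) it was 15.0 to 106 FPKM in aged and 10.1 to 22.4 FPKM in young libraries. Aged replicate 2 was the highest for each of these somatic lists, followed by aged replicate 1. Aged replicate 2 was also highest for the erythroid (4.74 to 20.1 FPKM in aged, 2.58 to 7.02 FPKM in young libraries) and endothelial markers (1.78 to 3.58 FPKM in aged, 1.03 to 1.14 FPKM in young libraries). All 6 spermatocyte markers were lower in aged libraries, with sums of 104.9 to 149 FPKM in aged and 129.7 to 175 FPKM in young libraries, the highest in young replicate 1.

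The members came from 36 families, and their levels were uneven. The Slc25 family of mitochondrial carriers gave 18 members of 44 genes, Slc35 (nucleotide sugar transporters) 9 of 27 and Slc39 (zinc importers) 6 of 14. Slc30 (zinc exporters) gave 5 of 10, and all 4 genes of the rodent Slco6 family were members. Slc9 (sodium-proton exchangers) gave 5 of 14, among them the scaffold gene Slc9a3r1. The 12 most abundant members held 49.8% of the members' summed level, and 8 members had a mean of at least 100 FPKM, 46 of at least 20 FPKM and 27 of under 10 FPKM. Among the matching genes that were not members, 70 had a mean of 1 to under 5 FPKM and 201 a mean under 1 FPKM, of which 6 were at 0 in every library. The share of matching genes that reached 5 FPKM was 27.2%, and that of all protein-coding genes 32.0%. Just inside the limit stood Slc34a2, a phosphate transporter (mean 5.54 FPKM), Slc26a5, prestin, known as the motor protein of outer hair cells (5.51 FPKM), and Slc35a2, a UDP-galactose transporter (5.28 FPKM). Just outside stood Slc24a1 (4.83 FPKM), Slc39a8 (4.73 FPKM) and Slc14a2 (4.73 FPKM). Slc14a2 is the symbol of more than 1 gene in the files, and the level given is that of ENSRNOG00000056021. A few genes fit the name pattern without being carriers themselves: Slc9a3r1 encodes a scaffold protein, Slc4a1ap and Slc7a6os are named for a neighbour or partner of a carrier, and Slc3a2 encodes the heavy chain that brings amino acid carriers to the membrane. They are counted in the families and substrate classes given here.

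**Figure D2:**
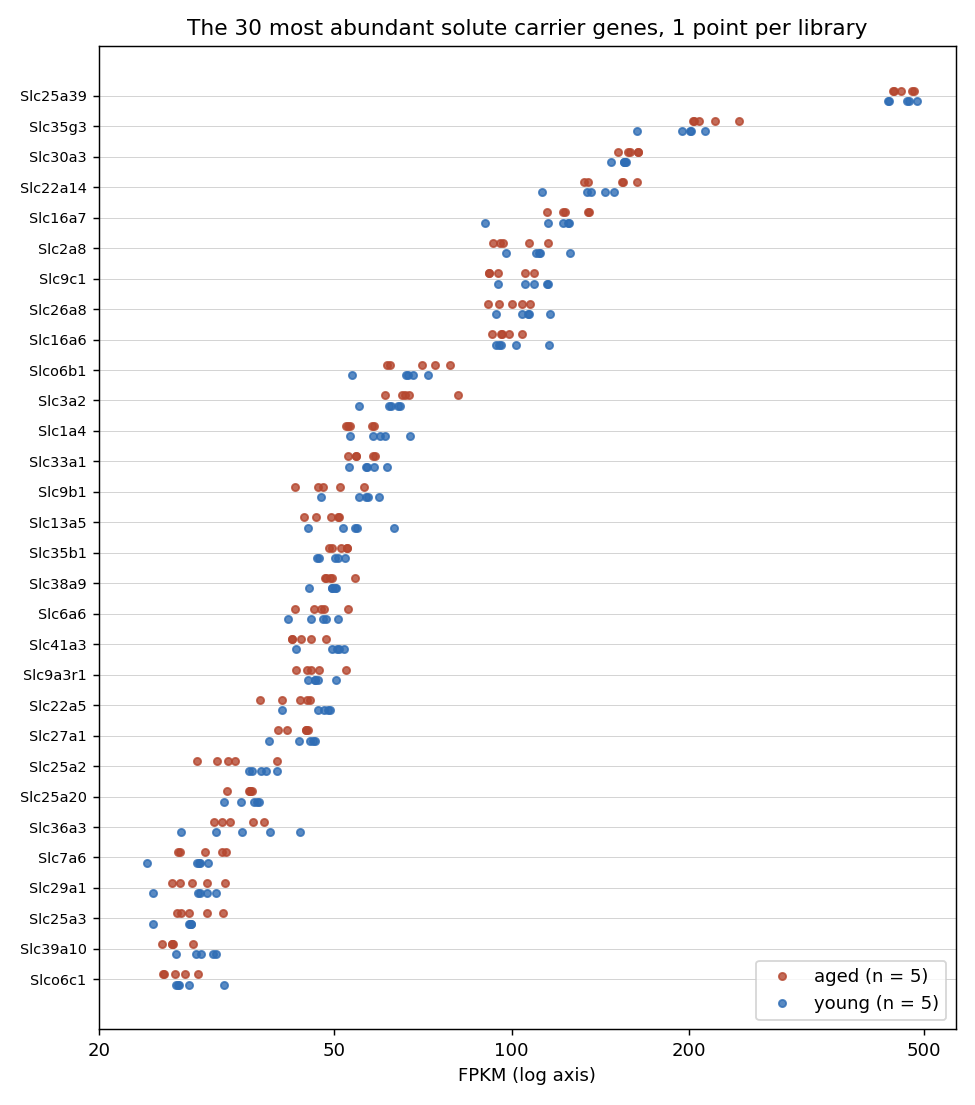
FPKM (log axis) of the 30 most abundant members in each library, aged above young for each gene, 1 point per library. Slc25a39 stands apart at 434.5 to 487 FPKM, the next 8 genes lie near or above 100 FPKM, and the aged and young points of each gene overlap.

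Mitochondrial carriers held the largest summed level of any substrate class: 758 ± 21.5 FPKM in aged and 760.1 ± 20.7 FPKM in young libraries (SD, n = 5 each). Of the 18 members, 10 were higher and 8 lower in aged libraries. Slc25a39 (ENSRNOG00000020994, chromosome 10, 90351900 to 90356242, minus strand, in coordinates of the files, whose build the sources used here do not give) imports glutathione into mitochondria. It was the most abundant member, at 456, 444, 481, 478 and 445 FPKM in aged replicates 1 to 5 and 472, 435, 436, 469 and 487 FPKM in young replicates 1 to 5. The groups overlapped, with means of 461 ± 17.7 FPKM in aged and 459 ± 23.1 FPKM in young libraries (log2 difference 0.0045, SE 0.045, limma adjusted p = 0.972). Slc25a2, an ornithine carrier, followed at 29.3, 31.7, 33.1, 33.9 and 40.0 FPKM in the aged libraries and 40.0, 37.7, 36.3, 38.4 and 35.9 FPKM in the young ones. All aged values but that of aged replicate 5 were below the young range (log2 difference -0.17, SE 0.073, unadjusted p = 0.0433, limma adjusted p = 0.413). Slc25a20, which exchanges carnitine and acylcarnitine for fatty acid oxidation, averaged 35.5 ± 1.42 FPKM in aged and 35.6 ± 1.98 FPKM in young libraries. Slc25a3, the phosphate carrier, averaged 29.2 ± 2.21 FPKM in aged and 27.8 ± 1.74 FPKM in young libraries. Slc25a33, a pyrimidine nucleotide carrier, averaged 21.1 ± 2.47 FPKM in aged and 20.4 ± 1.08 FPKM in young libraries. In each of these 3 genes the aged and young ranges overlapped.

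Exchange of ADP for ATP in mouse male germ cells is known to rest on Slc25a31, an autosomal carrier, as the somatic copy Slc25a5 is X-linked. Slc25a31 stood at 8.11, 10.9, 10.7, 15.7 and 13.6 FPKM in the aged libraries and 17.7, 12.04, 14.5, 12.4 and 11.7 FPKM in the young ones. It had the second-largest spread of the members within groups, with an SD of 0.288 on the log2 scale, and the groups overlapped (log2 difference -0.21, SE 0.16, limma adjusted p = 0.575). Its highest value was in young replicate 1 and its lowest in aged replicate 1. Slc25a5 and Slc25a4 were below the level that chose the members. Slc25a5 averaged 5.36 ± 4.09 FPKM in aged and 2.73 ± 0.566 FPKM in young libraries, and 12.6 FPKM in aged replicate 2 alone. Slc25a4, the heart and muscle carrier, averaged 4.13 ± 2.701 FPKM in aged and 1.77 ± 0.458 FPKM in young libraries, with 8.94 FPKM in aged replicate 2. Its groups did not overlap, as in 2.6% of all tested genes, with aged values from 2.58 FPKM and young values up to 2.56 FPKM. Aged replicate 2 also had the highest somatic marker sums given above; their part in these 2 values was not tested.

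Ion, acid-base and anion carriers include the exchangers known from sperm. Their summed level was 447 ± 24.5 FPKM in aged and 479.6 ± 29.98 FPKM in young libraries, and 13 of 17 members were lower in aged libraries, with a median log2 difference of -0.089. Of all 12985 tested genes, 7083 were lower. The class counts include Slc9a3r1 and Slc4a1ap, which are not carriers and were both lower in aged libraries (log2 differences -0.017 and -0.020). Slc9c1, the sperm sodium-proton exchanger that mouse sperm need to swim, stood at 91.7, 105, 109, 95 and 91.5 FPKM in aged replicates 1 to 5 and 115, 109, 105, 115 and 94.7 FPKM in young replicates 1 to 5. Aged and young values overlapped (log2 difference -0.13, SE 0.069, limma adjusted p = 0.467). Slc26a8, a testis anion transporter that partners a chloride channel in the sperm tail, had 95.2, 100.2, 107, 104 and 91.4 FPKM in the aged libraries and 116, 104, 107, 107 and 94.0 FPKM in the young ones. Its aged range lay within the young range except for its lowest value, in aged replicate 5 (log2 difference -0.081, SE 0.061, limma adjusted p = 0.576).

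Slc9b1, a sodium-proton exchanger of the sperm tail, averaged 49.1 ± 4.97 FPKM in aged and 55.2 ± 4.597 FPKM in young libraries (log2 difference -0.17, SE 0.078, unadjusted p = 0.0534, limma adjusted p = 0.428). The related Slc9b2 averaged 6.52 ± 0.266 FPKM in aged and 7.04 ± 0.949 FPKM in young libraries. Slc9a8, an exchanger of the Golgi that mouse spermatids need to form the acrosome, averaged 9.49 ± 0.879 FPKM in aged and 10.7 ± 2.05 FPKM in young libraries. Slc26a6 and Slc4a2 move bicarbonate in exchange for chloride: Slc26a6 ranged over 6.92 to 11.3 FPKM in aged and 9.73 to 10.1 FPKM in young libraries, while Slc4a2 averaged 5.83 ± 0.561 FPKM in aged and 5.74 ± 0.277 FPKM in young libraries. Slc26a6 was tight in young libraries and spread in aged ones, and 3 of its 5 aged values lay below the young range. Slc13a5, a citrate importer, averaged 48.5 ± 2.85 FPKM in aged and 53.9 ± 6.48 FPKM in young libraries. Limma gave unadjusted p values of 0.0534 for Slc9b1, 0.0947 for Slc13a5 and 0.118 for Slc26a6, so none of these passed.

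Sugar and monocarboxylate carriers summed to 404 ± 15.3 FPKM in aged and 404 ± 12.2 FPKM in young libraries. Slc16a7, the lactate and pyruvate transporter MCT2, had 122, 123, 135, 115 and 136 FPKM in aged replicates 1 to 5 and 90.2, 125, 122, 115 and 125 FPKM in young replicates 1 to 5. Young replicate 1 was the lowest library, and the other young values lay within the aged range (log2 difference 0.13, SE 0.089, limma adjusted p = 0.533). Without young replicate 1 the log2 difference was 0.048. Slc2a8, a glucose transporter of intracellular membranes and the sperm head, had 93.0, 95.5, 107, 115 and 96.8 FPKM in the aged libraries and 125, 110.2, 111, 112 and 97.8 FPKM in the young ones. The groups overlapped over most of their range (log2 difference -0.13, SE 0.074, limma adjusted p = 0.478). Slc16a6, the monocarboxylate transporter MCT7, averaged 97.7 ± 4.38 FPKM in aged and 101 ± 8.96 FPKM in young libraries. Slc2a1 and Slc16a3, a glucose and a lactate transporter of many cell types, averaged 12.8 ± 1.96 FPKM in aged and 11.4 ± 0.618 FPKM in young libraries for Slc2a1 and 11.3 ± 0.815 FPKM in aged and 10.5 ± 1.17 FPKM in young libraries for Slc16a3. Slc16a1, the lactate transporter MCT1, was below the level that chose the members, at 2.02 ± 0.391 FPKM in aged and 1.88 ± 0.318 FPKM in young libraries.

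Organic ion carriers were led by testis genes. Slc22a14, a carrier that mouse sperm need for fertility, had 154, 135, 154, 133 and 163 FPKM in aged replicates 1 to 5 and 113, 144, 136, 134 and 149 FPKM in young replicates 1 to 5. Young replicate 1 was again the lowest library, and the groups overlapped (log2 difference 0.13, SE 0.082, limma adjusted p = 0.517). Without that library the log2 difference was 0.065. Slc22a5, the carnitine importer, averaged 42.5 ± 3.39 FPKM in aged and 46.8 ± 3.47 FPKM in young libraries (log2 difference -0.13, SE 0.068, limma adjusted p = 0.453). The Slco6 genes, organic anion transporters known from rat testis, lie on chromosome 9 within 104392850 to 105376935 of the files' coordinates. Slco6b1 averaged 69.4 ± 7.44 FPKM in aged and 65.3 ± 6.95 FPKM in young libraries, and Slco6c1 averaged 27.1 ± 1.54 FPKM in aged and 28.5 ± 2.31 FPKM in young libraries. Slco6d1 is the symbol of 2 genes in the files. The first (ENSRNOG00000031146) stood at 21.4, 23.2, 36.5, 22.8 and 28.3 FPKM in the aged libraries and 27.0, 23.6, 23.1, 25.6 and 22.6 FPKM in the young ones, with aged replicate 3 above every other library.

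The second Slco6d1 gene (ENSRNOG00000047903) was the least steady member. It stood at 14.2, 27.5, 25.7, 16.5 and 29.6 FPKM in aged replicates 1 to 5 and 18.3, 35.2, 36.4, 21.9 and 25.1 FPKM in young replicates 1 to 5. The SD within groups was 0.436 on the log2 scale, against a median of 0.121 over the members. High and low values occurred in both groups (log2 difference -0.27, SE 0.24, limma adjusted p = 0.631). With 1 library left out the difference ranged from -0.40 without young replicate 1 to -0.12 without aged replicate 1, and it was -0.17 without aged replicate 4, -0.17 without young replicate 2 and -0.16 without young replicate 3. The sources used here do not say how fragments matching both genes were counted, and their sequences were not compared. The values of these 2 genes are therefore to be read with caution, and any such effect was not tested.

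Nucleoside, nucleotide sugar and acetyl-CoA carriers summed to 415 ± 18.9 FPKM in aged and 396 ± 19.4 FPKM in young libraries. Slc35g3, of the nucleotide sugar transporter family, was the most abundant of the 11 and had 208, 203, 222, 204 and 243 FPKM in aged replicates 1 to 5 and 163, 201, 201, 194 and 213 FPKM in young replicates 1 to 5. Aged replicates 1, 3 and 5 and young replicate 5 were the highest libraries, and the groups overlapped (log2 difference 0.15, SE 0.075, unadjusted p = 0.0661, limma adjusted p = 0.443). Slc33a1, which brings acetyl-CoA into the endoplasmic reticulum, averaged 55.7 ± 2.55 FPKM in aged and 57.3 ± 3.07 FPKM in young libraries. Slc35b1, which exchanges ATP and ADP across the same membrane, averaged 51.0 ± 1.66 FPKM in aged and 49.4 ± 2.37 FPKM in young libraries. The nucleoside transporter Slc29a1 averaged 29.2 ± 2.45 FPKM in aged and 29.2 ± 2.66 FPKM in young libraries, so the 3 genes differed between ages by less than the spread within groups. Slc35a2, the 1 member on chromosome X, averaged 4.91 ± 0.570 FPKM in aged and 5.64 ± 0.819 FPKM in young libraries.

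Amino acid carriers summed to 458 ± 13.2 FPKM in aged and 461 ± 10.2 FPKM in young libraries, with 8 of 18 members higher in aged libraries. The heavy chain Slc3a2 had 61.1, 81.1, 67.1, 66.0 and 65.2 FPKM in aged replicates 1 to 5 and 64.2, 61.9, 62.5, 64.8 and 55.1 FPKM in young replicates 1 to 5. Aged replicate 2 stood above all other libraries, aged replicates 3, 4 and 5 were just above the young range and aged replicate 1 lay within it (log2 difference 0.14, SE 0.073, limma adjusted p = 0.469). Without aged replicate 2, the library with the highest somatic marker sums, the log2 difference was 0.073 (unadjusted p = 0.223); the part of those cells was not tested. Slc1a4, a transporter of small neutral amino acids, averaged 55.0 ± 2.97 FPKM in aged and 59.9 ± 5.10 FPKM in young libraries. Slc38a9, which senses arginine in lysosomes, ranged over 48.3 to 54.3 FPKM in aged and 45.3 to 50.4 FPKM in young libraries, while Slc6a6, the taurine transporter, averaged 47.5 ± 3.57 FPKM in aged and 46.9 ± 3.44 FPKM in young libraries. Slc36a3, a testis gene of the proton-coupled amino acid transporter family, averaged 34.3 ± 2.86 FPKM in aged and 35.3 ± 6.32 FPKM in young libraries. Of the light chains that pair with Slc3a2, Slc7a6 ranged over 27.2 to 32.8 FPKM in aged and 24.1 to 30.6 FPKM in young libraries, while Slc7a5 is described below.

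Metal ion carriers summed to 412 ± 12.99 FPKM in aged and 421 ± 4.96 FPKM in young libraries, with 9 of 14 members lower in aged libraries. Slc30a3, a zinc exporter known from synaptic vesicles, had 159, 152, 164, 157 and 164 FPKM in aged replicates 1 to 5 and 155, 156, 156, 155 and 147 FPKM in young replicates 1 to 5. The groups overlapped, and the spread was the smallest of all 101 members, with a within-group SD of 0.0410 on the log2 scale, and the interval of the age difference was -0.032 to 0.13 (log2 difference 0.047, SE 0.036, limma adjusted p = 0.579). The zinc exporter Slc30a1 averaged 21.6 ± 1.24 FPKM in aged and 21.0 ± 1.91 FPKM in young libraries, and the copper importer Slc31a1 averaged 14.4 ± 1.34 FPKM in aged and 14.4 ± 1.52 FPKM in young libraries. Vitamin, choline, haem and lipid carriers summed to 101 ± 2.23 FPKM in aged and 104 ± 4.52 FPKM in young libraries. Slc27a1, a fatty acid transporter, averaged 43.3 ± 2.24 FPKM in aged and 44.1 ± 3.14 FPKM in young libraries. Slc48a1, a haem transporter, averaged 22.2 ± 1.19 FPKM in aged and 21.7 ± 1.58 FPKM in young libraries.

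**Figure D3:**
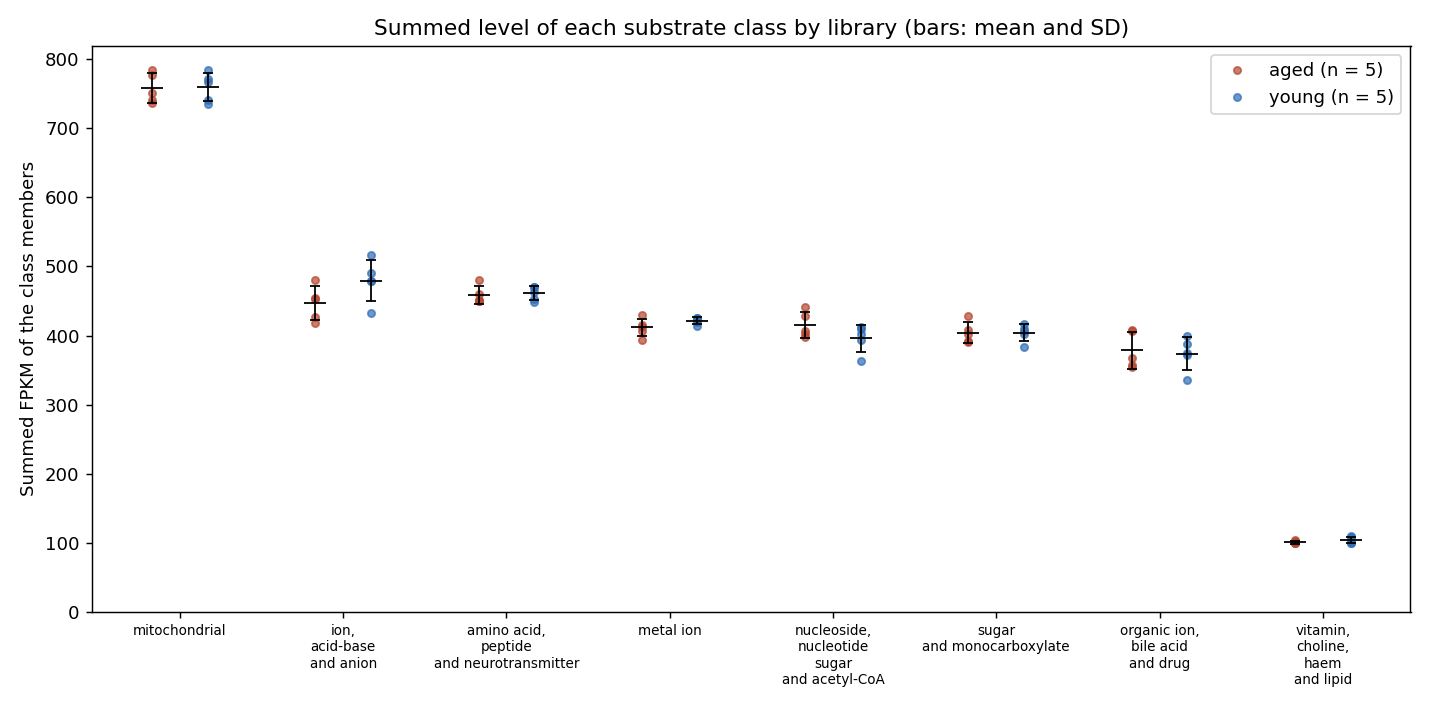
Summed FPKM of the members of each substrate class in each library (points), with the mean and SD of the 5 aged libraries to the left of the 5 young ones. Mitochondrial carriers are highest at 758 FPKM in aged and 760.1 FPKM in young libraries, and in each class the aged and young points overlap.

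Among the 4 members that were higher in aged libraries at an unadjusted p under 0.05, Slc7a5 had the largest difference. Slc7a5 (ENSRNOG00000018824, chromosome 19, 54693959 to 54722563, minus strand) stood at 6.14, 9.42, 4.84, 6.42 and 6.56 FPKM in aged replicates 1 to 5 and 5.09, 3.93, 4.73, 3.82 and 5.10 FPKM in young replicates 1 to 5. Aged replicate 2 was the highest, aged replicate 3 lay within the young range, and the other aged libraries were above it (log2 difference 0.45, SE 0.14, unadjusted p = 0.00744, limma adjusted p = 0.319). Without aged replicate 2 the log2 difference was 0.34, and without aged replicates 1 and 2 it was 0.32 (unadjusted p = 0.0275). Aged replicate 2 had the highest somatic marker sums (119 FPKM for the Leydig cell, 132 FPKM for the Sertoli cell, 217 FPKM for the peritubular and 106 FPKM for the macrophage list). The lowest aged sums of the Leydig cell and peritubular lists, 10.7 and 88.1 FPKM, were also above the highest young ones, 7.87 and 85.7 FPKM. The part of these cells in the Slc7a5 difference was not tested. In bulk RNA, fewer cells of a type and less RNA per cell cannot be told apart.

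Slc25a1, the mitochondrial citrate carrier (ENSRNOG00000038001, chromosome 11, 87204175 to 87207264, plus strand), stood at 7.76, 7.47, 7.53, 8.71 and 7.56 FPKM in aged replicates 1 to 5 and 7.08, 7.16, 6.11, 6.16 and 6.69 FPKM in young replicates 1 to 5. Every aged value was above every young value, with aged replicate 4 the highest (log2 difference 0.21, SE 0.066, unadjusted p = 0.00958, limma adjusted p = 0.327). Slc35b3, which carries the sulfate donor PAPS into the Golgi, had 6.23, 6.87, 7.43, 6.54 and 7.17 FPKM in the aged libraries and 5.77, 6.81, 5.74, 4.88 and 6.04 FPKM in the young ones. Young replicate 2 overlapped the aged range (log2 difference 0.20, SE 0.081, unadjusted p = 0.0298, limma adjusted p = 0.391). Slc25a35, a mitochondrial carrier with no settled substrate, had 19.2, 16.5, 18.9, 15.3 and 17.9 FPKM in the aged libraries and 12.96, 15.4, 14.5, 16.5 and 16.7 FPKM in the young ones. Young replicates 2, 4 and 5 reached into the aged range and young replicate 1 was the lowest (log2 difference 0.20, SE 0.081, unadjusted p = 0.0332, limma adjusted p = 0.392). Slc25a35 overlaps Rangrf on the opposite strand, and the sources used here do not give the strand setting of the counting, so reads of the pair cannot be told apart.

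Of the 9 members lower in aged libraries at an unadjusted p under 0.05, Slc1a2 had the smallest p. Slc1a2, a glutamate importer (ENSRNOG00000005479, chromosome 3, 92640752 to 92665644, plus strand, with only 882 bp of counted length), stood at 20.6, 20.8, 23.3, 21.3 and 19.6 FPKM in aged replicates 1 to 5 and 25.8, 22.0, 26.01, 24.5 and 23.9 FPKM in young replicates 1 to 5. Young replicate 2 lay within the aged range, and aged replicate 3 was the only aged value above it (log2 difference -0.20, SE 0.060, unadjusted p = 0.00620, limma adjusted p = 0.319).

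Of the metal carriers, Slc39a10, a zinc importer, had 26.7, 26.6, 28.9, 25.5 and 26.6 FPKM in the aged libraries and 31.5, 29.2, 29.8, 31.2 and 26.9 FPKM in the young ones. The aged values of replicates 1, 2, 4 and 5 lay below the young range and aged replicate 3 within it (log2 difference -0.14, SE 0.053, unadjusted p = 0.0212, limma adjusted p = 0.371). Slc41a3, a magnesium transporter, had 42.5, 42.4, 48.4, 45.8 and 43.9 FPKM in the aged libraries and 49.7, 50.9, 52.1, 50.7 and 43.1 FPKM in the young ones. Young replicate 5 was at the level of the aged libraries and the other young values were above every aged one (log2 difference -0.14, SE 0.059, unadjusted p = 0.0364, limma adjusted p = 0.399). Slc30a4, a zinc exporter named here after its values were seen, had 23.4, 20.4, 23.2, 25.0 and 21.7 FPKM in the aged libraries and 31.8, 22.5, 24.4, 25.0 and 35.4 FPKM in the young ones. Young replicates 1 and 5 were high and the other young values overlapped the aged range (log2 difference -0.26, SE 0.12, unadjusted p = 0.0443, limma adjusted p = 0.415).

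Slc19a2, a thiamine importer, had 16.6, 18.7, 20.1, 19.4 and 19.0 FPKM in the aged libraries and 22.9, 21.3, 21.2, 21.6 and 18.6 FPKM in the young ones. Young replicate 5 lay within the aged range and the others above it (log2 difference -0.16, SE 0.066, unadjusted p = 0.0295, limma adjusted p = 0.391). Slc38a6, an amino acid carrier that overlaps Trmt5 on the opposite strand, had 11.3, 10.95, 12.2, 10.7 and 10.6 FPKM in the aged libraries and 12.5, 13.6, 11.4, 14.3 and 11.6 FPKM in the young ones. The lower young values overlapped the aged range (log2 difference -0.17, SE 0.070, unadjusted p = 0.0376, limma adjusted p = 0.405). Slco3a1, an organic anion transporter, had 8.03, 9.04, 10.01, 10.3 and 9.55 FPKM in the aged libraries and 12.3, 11.5, 11.3, 10.7 and 8.95 FPKM in the young ones. Young replicate 5 lay within the aged range, and aged replicate 1 was the lowest library (log2 difference -0.20, SE 0.088, unadjusted p = 0.0426, limma adjusted p = 0.412). Slc1a2, Slc25a1 and Slc7a5 kept an unadjusted p under 0.05 in every alternative fit. Longer than the median tested gene (1886 bp) were 7 of the 9 lower members and 2 of the 4 higher ones. The median length of all 101 members was 2410 bp, so most members were longer than the median tested gene. After removal of a length and level trend, 10 members had an unadjusted p under 0.05, 4 of them higher.

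**Figure D4:**
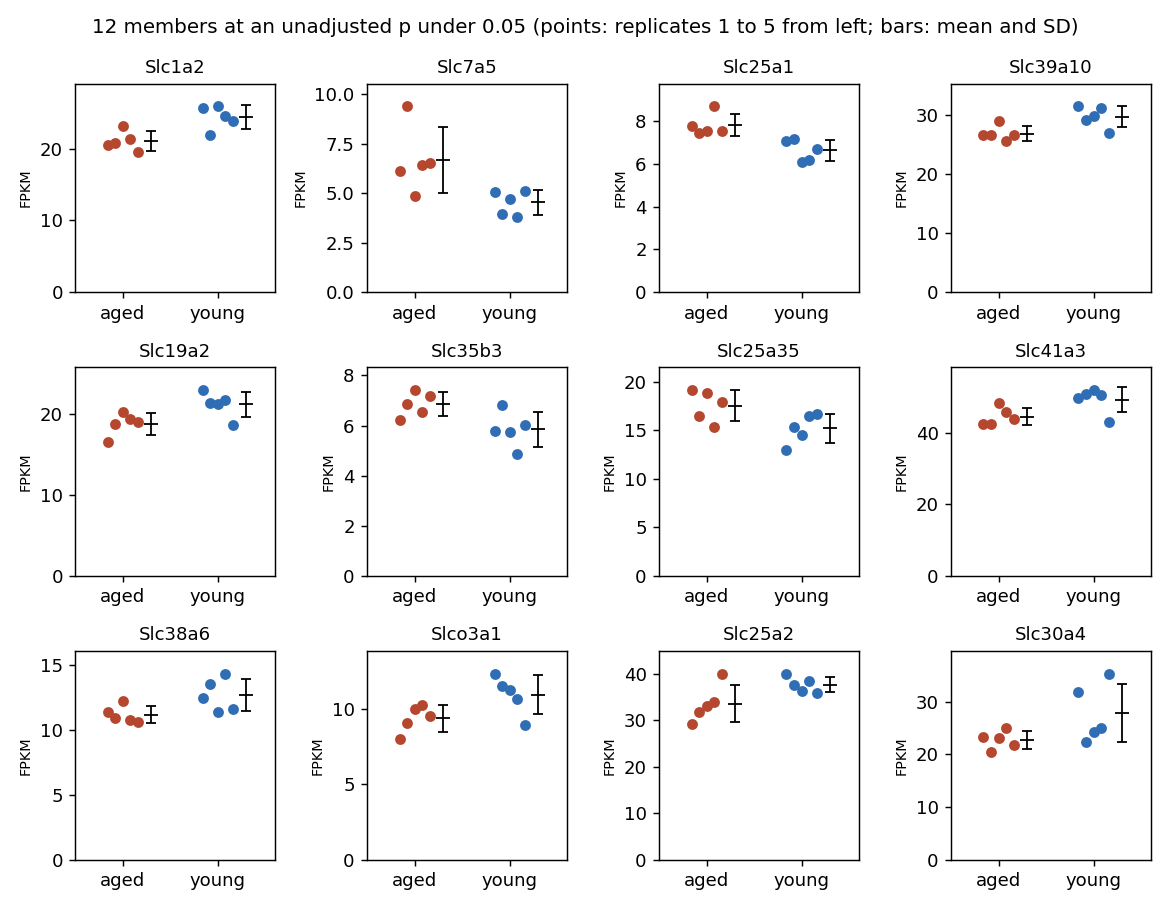
FPKM of 12 members at an unadjusted p under 0.05, aged left of young, 1 panel per gene with an axis from 0; points are replicates 1 to 5 from left to right and bars give the mean and SD. Of these, only Slc25a1 has no overlap, with aged values from 7.47 FPKM and young values up to 7.16 FPKM.

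The highest and lowest values of the members were unevenly spread over the libraries. Young replicate 1 held the highest value of 23 members and the lowest of 22, shares of 22.8% and 21.8%, against 16.9% and 17.8% of all genes tested. Aged replicate 1 held the lowest value of 23 members (22.8%, against 17.7% of all genes tested). Aged replicate 3 held the highest of 15 (14.85%, against 10.1%) and the lowest of 1 (0.990%, against 6.62%). Relative to the median of the other libraries, young replicate 1 was at least 1.2-fold lower for 16 members and at least 1.2-fold higher for 10. Such shares were not taken over all genes tested, so these counts cannot show whether this is particular to the members. The low ones were led by Slc25a25, the second Slco6d1 gene, Slc16a7, Slc25a41, Slc17a2 and Slc22a14. Among the high ones were Slc25a31, Slc7a6os, Slc9a8, Slc30a4 and Slc13a5. Young replicate 1 also had the highest spermatocyte marker sum (175 FPKM); its part in these values was not tested. Without both young replicate 1 and aged replicate 2, a choice made after seeing the data, 5 members and 7.56% of all tested genes had an unadjusted p under 0.05.

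**Figure D5:**
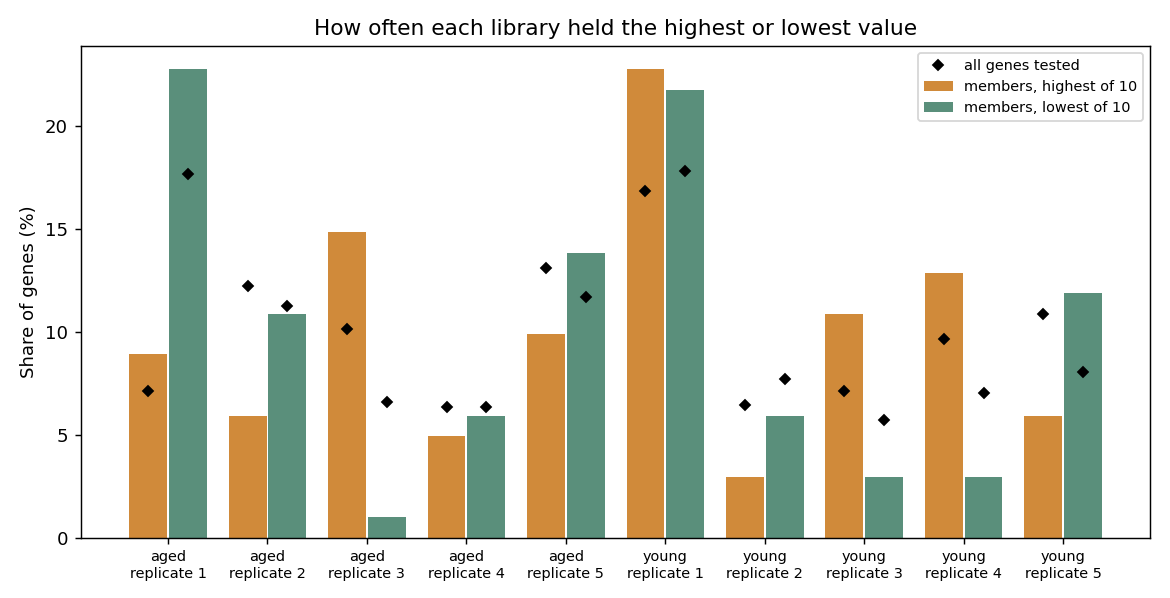
Share of the 101 members (bars) for which each library held the highest or the lowest of the 10 values, aged libraries left of young ones; diamonds give the same share over all 12985 genes tested. Young replicate 1 is highest for 22.8% and lowest for 21.8% of members, and aged replicate 3 is lowest for 0.990%.

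Genes that work with the carriers were compared in the same fit. Of 47 listed partners, 34 were tested, 14 were higher and 20 lower in aged libraries, and 0 passed limma with adjustment. An unadjusted p under 0.05 was found for 2 in the higher and 1 in the lower direction. The shares over all tested genes were 5.54% and 6.35%. Bsg, the chaperone of the lactate transporters, averaged 270.2 ± 27.4 FPKM in aged and 252 ± 10.2 FPKM in young libraries (limma adjusted p = 0.542). Atp1a4, the sodium pump subunit of sperm, averaged 325 ± 19.0 FPKM in aged and 332 ± 28.0 FPKM in young libraries. Mpc2, a subunit of the mitochondrial pyruvate carrier, averaged 563 ± 66.1 FPKM in aged and 529.5 ± 38.1 FPKM in young libraries. The outer membrane porin Vdac3 averaged 456 ± 13.9 FPKM in aged and 461 ± 12.6 FPKM in young libraries, and the water channels Aqp11 and Aqp7 averaged 521 ± 22.1 and 361 ± 28.7 FPKM in aged and 529 ± 26.9 and 347 ± 38.6 FPKM in young libraries. Partners at an unadjusted p under 0.05 included Abca1, a cholesterol exporter (1.13 to 3.95 FPKM in aged and 0.750 to 1.203 FPKM in young libraries) and Abca5 (4.83 to 7.48 FPKM in aged and 6.52 to 9.74 FPKM in young libraries), named after their values were seen.

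A list of 43 carriers with a known germ cell or sperm role had 24 symbols among the members and 18 below the level that chose them. For 1 (Slc22a16) the deposited values held no gene under that symbol. Besides those given above, the ones below it included Slc39a8, a manganese and zinc importer, at 5.82 ± 1.61 FPKM in aged and 3.65 ± 0.687 FPKM in young libraries, with 8.67 FPKM in aged replicate 2. Its lowest aged value, 4.91 FPKM, was above its highest young value, 4.46 FPKM, and 2.6% of all tested genes also had no overlap. Aged replicate 2 had the highest somatic marker sums, and their part in the Slc39a8 values was not tested. Slc2a5, a fructose transporter of sperm in other mammals, averaged 0.467 ± 0.217 FPKM in aged and 0.390 ± 0.147 FPKM in young libraries. Slc8b1, the mitochondrial sodium-calcium exchanger, averaged 0.383 ± 0.247 FPKM in aged and 0.132 ± 0.118 FPKM in young libraries. Its mean was below the 1 FPKM needed for testing, with 0 FPKM in young replicate 4 and 0.778 FPKM in aged replicate 2.

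Promoters were searched for the cAMP response element, since its binding protein CREM is known to activate many genes of mouse round spermatids. The windows reach from 250 bases before to 50 after the gene start in RefSeq (assembly GRCr8, a separate source from the files' coordinates), and 79 member symbols had one. The full element TGACGTCA, which reads the same on both strands, stood in 3 member windows (3.80%) and in 1.91% of all 27457 windows. The form TGACGTNA, which includes the full element and was searched on both strands, stood in 4 (5.06%, against 3.39%). The short element TGACGT, contained in both, stood in 12 (15.2%, against 8.22%). The comparison windows were not limited by level, while the members were chosen at a mean of at least 5 FPKM. The shares are therefore not set against a like set of genes. The 4 windows with the longer forms follow as 60 bases each, 5′ to 3′ on the gene's strand, with the element in capitals; they show how the matches differ in position and surroundings, and a match is no evidence of binding.
Slc25a25, chr3:36116706-36116765, minus strand: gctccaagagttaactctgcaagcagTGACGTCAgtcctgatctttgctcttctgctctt
Slc25a33, chr5:165503024-165503083, minus strand: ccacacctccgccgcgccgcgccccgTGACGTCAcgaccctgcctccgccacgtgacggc
Slc38a6, chr6:97723364-97723423, plus strand: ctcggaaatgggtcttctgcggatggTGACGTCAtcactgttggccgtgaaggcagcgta
Slc25a1, chr11:96560008-96560067, plus strand: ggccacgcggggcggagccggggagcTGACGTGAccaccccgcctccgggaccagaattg
The element starts at position -158 from the gene start in Slc25a25, a calcium-regulated ATP-magnesium carrier, at -84 in Slc25a33, at -136 in Slc38a6 and at -20 in Slc25a1. Of the 12 members with the short element, 2 (Slc38a6, lower, and Slc25a1, higher in aged libraries) had an unadjusted p under 0.05, where 11.9% of all tested genes had one.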

How the data were processed

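The authors deposited FPKM values, fragment counts per gene length and library size, for 32545 genes in every library, per the file headers. HISAT2 2.0.5 and featureCounts 1.5.0-p3 are named in the submitters' processing notes. The sources used here do not give the strand setting or the genome build, and no batch is labelled. Multiplying each FPKM value by its gene length and by a factor found for each library gave back fragments, within 0.01 of a whole number for 100.0% of values above 0. The library size behind this factor was 0.966 to 1.025 of the recovered total, so it was not that total alone. Median-of-ratios factors of the deposited values were 1.002 in every library, so median-of-ratios scaling could change little. Limma 3.58.1 in R 4.3.3 (lmFit, eBayes with a trend) was run on log2(FPKM + 1), two-sided, over 12985 genes whose mean reached 1 FPKM, with Benjamini-Hochberg adjustment; fold changes on this scale understate those of low genes. The fit used all 5 aged and all 5 young libraries with no covariate, and was tested on simulated data. Voom on the recovered fragments, with their total as the library size, modelled depth as an alternative. All 101 members passed the filter on low values. Carriers were put into substrate classes by family.

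Named members were the 12 most abundant, the 2 highest per class, up to 8 per direction at an unadjusted p under 0.05, members without overlap, the 4 with the largest spread, those on the germ cell role list and those at the limit of 5 FPKM. Further members named for their role in a class were chosen after their values were seen. Members and lists were chosen with earlier results of these data known. Results on some genes are not reported here. Alternatives were a pseudocount of 0.1, a filter at 5 FPKM or none, scaling by TPM, quantiles or median of ratios, voom, protein-coding genes only, robust eBayes, a replicate block, a length trend removed, and libraries left out.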

Additional observations from a re-analysis of the deposited data

Results flagged for a closer look

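Within groups of 5, 1 library stood apart from the other 4 for 8 of 94 groups screened (the 47 named members in each age group; chance gives about 1 in 20). The criterion was a gap to the nearest value of over 0.71 of the group's range. Slc16a7, a lactate transporter, was at 90.2 FPKM in young replicate 1, against 115 to 125 FPKM in the other young libraries, and Slc30a1, a zinc exporter, at 17.8 FPKM in young replicate 1, against 21.4 to 22.6 FPKM. Slc30a3 was at 147 FPKM in young replicate 5, against 155 to 156 FPKM. Young replicate 5 was also the lowest for Slc41a3, at 43.1 FPKM against 49.7 to 52.1 FPKM, and for Slc22a5, at 40.7 FPKM against 47.0 to 49.2 FPKM. Slco6c1 was highest in young replicate 2, at 32.5 FPKM against 27.0 to 28.4 FPKM. In the aged group, Slc25a1 was at 8.71 FPKM in aged replicate 4, against 7.47 to 7.76 FPKM, and Slc4a2 at 4.85 FPKM in aged replicate 5, against 5.89 to 6.20 FPKM.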

How the results depend on the processing

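The count of members past the adjusted threshold was 0 in every alternative run. At an unadjusted p under 0.05 it was 9 to 13 under the other pseudocount, filters, scalings, sets of genes tested, prior, length trend and voom. In those fits 9.58% to 12.55% of all genes tested had such a p. With 1 library left out the count of members was 7 to 24 (8.895% to 16.8% of all genes tested). Without aged replicates 1 and 2 the count was 8 (7.49%). Without young replicate 1 and aged replicate 2, chosen after seeing the data, the count was 5 (7.56%). Members without overlap numbered 1 with the deposited values, 4 after TPM scaling, 2 after quantile scaling and 2 with voom. With 1 library left out they numbered 1 to 12 (12 without young replicate 5, 6 without aged replicate 3). They numbered 3 without aged replicates 1 and 2, and 2 without young replicate 1 and aged replicate 2. Leaving out a library can only keep or raise such a count. The share of all tested genes was taken with the deposited values alone (2.6%), so these counts are no result about the members. The cause of the changes with scaling and voom was not tested. With a replicate block 10 members had an unadjusted p under 0.05, where 9.665% of all genes tested had one, and 0 passed. Deviations of same-numbered libraries correlated at -0.158 to 0.054, so the numbers were not taken to pair them. Of 1081 recomputed log2 differences of the 47 named members, 1081 moved by less than the spread within groups. A filter, the set of genes tested, the prior and a replicate block leave a log2 difference unchanged. Leaving 1 library out of 5 cannot move it by more than that spread. So this count was largely fixed in advance and is no measure of how steady the differences are. At this depth 1 FPKM over a kilobase stands for 14.6 to 18.6 fragments, and counting error was not separated from the spread between libraries.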
